A study of Mus musculus with 2 samples.

Results

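The genes described here are the 7 that encode the cytosolic machinery of translation elongation and its regulatory kinase: Eef1a2, Eef1a1, Eef1b2, Eef1d, Eef1g, Eef2 and Eef2k. They were taken by symbol from the annotation used for the deposited tables, and all 7 were found among 55536 annotated genes, of which 22015 were nuclear and protein-coding. Total RNA came from gastrocnemius, the large calf muscle, of 2 male mice aged 8 to 10 months. Both animals were B6CASTF1/J, F1 hybrids whose parents are C57BL/6J and CAST/EiJ, and are called replicate 2 and replicate 1. No treatment was named, and a single donor identifier is shared by the animals although their animal numbers differ. Each library was made from 300 ng of ribosome-reduced RNA with a directional kit and an external (ERCC) spike-in mix. With 1 group of 2 animals the data allow the levels of these genes, the ratios between them and the difference between the 2 animals to be described. No test was run, since there is no other group and the animals are compared as 1 library against 1. Both animals were of the same age class, so no change of paralog during development was measured.

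During elongation, eEF1A carries each aminoacyl-tRNA to the ribosome as a GTP complex and leaves it bound to GDP. The eEF1B complex, built from the products of Eef1b2, Eef1d and Eef1g, exchanges that GDP for GTP, and eEF2 then moves the ribosome along the mRNA by 1 codon. The kinase eEF2K, which is switched on by calcium and calmodulin, phosphorylates eEF2 and slows elongation. In rodents eEF1A comes in a widely expressed form, from Eef1a1, and a form largely restricted to skeletal muscle, heart and neurons, from Eef1a2. The muscle form replaces the other as muscle matures after birth.

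Estimated counts summed to 37752252 for replicate 2 and 36792619 for replicate 1, and a count of 0 allows up to 3 counts, or 0.0795 CPM in replicate 2 and 0.0815 CPM in replicate 1 (counting error only). They differed beyond sampling noise, with a chi-square of 94.4 per degree of freedom over 14101 genes, a large part of which came from the pair named next. A pair of RNAs stood apart: Gm42418 took 0.167% of the counts in replicate 2 and 2.00% in replicate 1, and Lars2 took 0.00786% in replicate 2 and 0.560% in replicate 1. Muscle fibre markers summed to 79058 TPM in replicate 2 and 74749 TPM in replicate 1, so the labelled tissue carried its defining transcripts. TPM, a relative level per transcript length, is the scale of every level below. Values after ± are SDs over the 2 animals.

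Eef1a2 and Eef1a1 encode closely related proteins, so how far their transcripts can be told apart comes before their levels. Their coding sequences, 1389 bases for Eef1a2 and 1386 for Eef1a1, aligned over 1386 bases, of which 1110 were identical (80.1%). The longest identical run was 23 bases, and the annotated transcripts of the pair had no 31-base word in common. In 861 aligned windows of 75 bases, each inside 1 exon, the pair differed at 7 to 27 bases, with a median of 15. The windows with the fewest and the most differences are printed to show this. They are in the transcribed direction, from the minus strand of GRCm38 (mm10), taken from the GENCODE M21 transcripts, with the bases that differ between the paralogs in capitals. The most alike window is coding exon sequence in exon 2 (coding bases 55 to 129), at chr2:181155278-181155352 in Eef1a2 and chr9:78480526-78480600 in Eef1a1, and differs at 7 bases.
Eef1a2, fewest differences: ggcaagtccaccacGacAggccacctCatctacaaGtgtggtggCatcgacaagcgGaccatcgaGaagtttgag
Eef1a1, fewest differences: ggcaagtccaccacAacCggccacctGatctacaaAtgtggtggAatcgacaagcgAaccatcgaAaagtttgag
The least alike window is coding exon sequence in exon 5 (coding bases 646 to 720), at chr2:181150971-181151045 in Eef1a2 and chr9:78479676-78479750 in Eef1a1, and differs at 27 bases.
Eef1a2, most differences: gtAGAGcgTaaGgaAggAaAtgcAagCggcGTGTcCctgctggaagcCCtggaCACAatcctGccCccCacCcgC
Eef1a1, most differences: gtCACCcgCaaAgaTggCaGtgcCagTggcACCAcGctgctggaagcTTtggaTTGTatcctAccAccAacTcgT

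Eef1a2 (ENSMUSG00000016349.10, minus strand, chr2:181147653-181157014) was the most abundant of the 7 genes. It held 864 TPM in replicate 2 and 812 TPM in replicate 1 (838 ± 36.7, n = 2), at rank 41 in replicate 2 and rank 44 in replicate 1 among nuclear protein-coding genes. Eef1a1 (ENSMUSG00000037742.14, minus strand, chr9:78478449-78489151) held 122 TPM in replicate 2 and 97.4 TPM in replicate 1 (110 ± 17.4), at rank 415 in replicate 2 and rank 545 in replicate 1. The ranges of the paralogs did not overlap, and Eef1a1 stood below the exchange factor genes Eef1g and Eef1b2.

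Within each library Eef1a2 was therefore 7.08-fold above Eef1a1 in replicate 2 and 8.33-fold above it in replicate 1 (mean log2 ratio 2.94 ± 0.17). Of the summed TPM of the pair, Eef1a2 made up 87.6% in replicate 2 and 89.3% in replicate 1 (88.5% ± 1.17). A minority of eEF1A transcripts, 12.4% in replicate 2 and 10.7% in replicate 1, thus came from the widely expressed gene. In whole muscle, fewer cells that use a gene and less of its RNA per cell cannot be told apart, and this holds for every level given here.

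**Figure D1:**
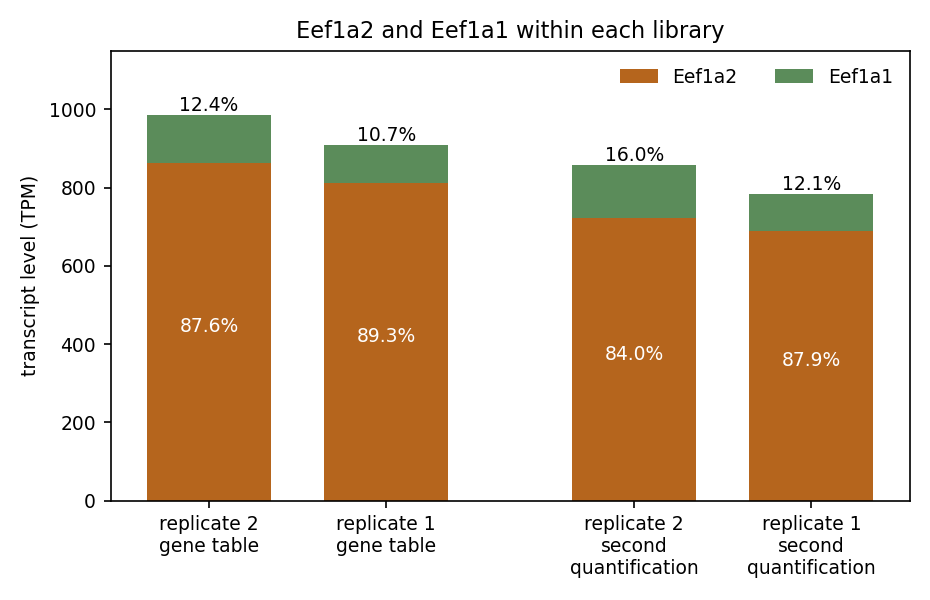
Levels of Eef1a2 and Eef1a1 stacked in each library (vertical axis, TPM), for the gene tables on the left and the second quantification on the right, with the percent of the pair's sum printed for each gene. Eef1a2 makes up 87.6% in replicate 2 and 89.3% in replicate 1 in the gene tables, and 84.0% in replicate 2 and 87.9% in replicate 1 in the second quantification.

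The muscle paralog held most of the pair in both deposited quantifications, with shares whose means differed by more than the SD of the first and less than the SD of the second. In the second quantification, which assigns reads to transcripts from an index, Eef1a2 held 721 TPM in replicate 2 and 689 TPM in replicate 1. Eef1a1 held 138 TPM in replicate 2 and 94.98 TPM in replicate 1, which put the Eef1a2 share at 84.0% in replicate 2 and 87.9% in replicate 1 (85.9% ± 2.76). All 31-base words of Eef1a2 were found in no other gene, against 50.2% of those of Eef1a1. Eef1a1 shared words with 27 other genes, which held 268 counts in replicate 2 and 216 in replicate 1 in all. The 22 pseudogenes among them held 7.83 TPM in replicate 2 and 6.84 TPM in replicate 1. Most TPM of the others lay on the short miRNA gene Mir703, at 15.6 TPM in replicate 2 and 48.5 TPM in replicate 1, which rested on 4 counts in replicate 2 and 11 in replicate 1 and is left out of the sum that follows. With the pseudogene signal added to Eef1a1, the Eef1a2 share was 86.9% in replicate 2 and 88.6% in replicate 1, a change smaller than the SD between the animals.

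Eef2 (ENSMUSG00000034994.10, plus strand, chr10:81176631-81182498), the translocase gene, was the second most abundant, at 567 TPM in replicate 2 and 570.3 TPM in replicate 1 (569 ± 2.31). It was at rank 59 in replicate 2 and rank 62 in replicate 1 among nuclear protein-coding genes, and the animals lay closer together than for Eef1a2. Set against the summed eEF1A genes, at 986 TPM in replicate 2 and 910 TPM in replicate 1, Eef2 stood at 0.575 of their level in replicate 2 and 0.627 in replicate 1 (log2 ratio −0.74 ± 0.09). The processed pseudogene Gm13050, which shares words with Eef2, held 29.8 TPM in replicate 2 and 30.6 TPM in replicate 1, and 78.8% of the words of Eef2 were its own. The split of reads between that pseudogene and Eef2 is uncertain.

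The 3 genes of the exchange complex lay between 94.97 and 180 TPM, below the summed genes of their substrate eEF1A. Eef1g (ENSMUSG00000071644.10, plus strand, chr19:8967041-8978479), which encodes the gamma subunit that holds the complex together, held 180 TPM in replicate 2 and 171 TPM in replicate 1 (175 ± 6.45). Eef1b2 (ENSMUSG00000025967.16, plus strand, chr1:63176825-63180486), which encodes a catalytic exchange subunit, held 143 TPM in replicate 2 and 133 TPM in replicate 1 (138 ± 7.44). Eef1d (ENSMUSG00000055762.16, minus strand, chr15:75894205-75909556), which encodes the other exchange subunit, held 94.97 TPM in replicate 2 and 95.4 TPM in replicate 1 (95.2 ± 0.269). None of the 3 ranges overlapped another.

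Their mean was 139 TPM in replicate 2 and 133 TPM in replicate 1. The summed eEF1A transcripts stood 7.07-fold above that mean in replicate 2 and 6.84-fold above it in replicate 1 (log2 ratio 2.80 ± 0.03). Eef1g has 10 pseudogenes that share words with it, at 13.4 TPM in replicate 2 and 12.6 TPM in replicate 1. Of its words 52.4% were its own, against 86.9% for Eef1b2 and 91.4% for Eef1d. The second quantification moved Eef1g little, to a mean of 184.9 TPM, and moved Eef1b2 more, to 169 TPM, so the share of own words does not order these levels by how far they moved. The start of Eef1b2 overlaps that of the complex I gene Ndufs1 on the opposite strand, which held 9570 counts in replicate 2 and 8726 in replicate 1. Those counts are for the whole of Ndufs1, and the overlap runs only from chr1:63176825 to chr1:63176833. It is shorter than the words compared here, and Ndufs1 is not among the genes that share words with Eef1b2. The strand setting of the counting is not given in the sources used here, but so short an overlap leaves little room for it to move reads between these genes. Naprt, which overlaps Eef1d on the same strand, held 134 counts in replicate 2 and 111 in replicate 1.

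Eef2k (ENSMUSG00000035064.17, plus strand, chr7:120842831-120907450), the kinase of eEF2, was the lowest of the 7, at 32.9 TPM in replicate 2 and 32.7 TPM in replicate 1 (32.8 ± 0.156). Its target Eef2 was 17.2-fold above it in replicate 2 and 17.4-fold above it in replicate 1 (log2 ratio 4.11 ± 0.01). Together the 7 genes held 2004 TPM in replicate 2 and 1911 TPM in replicate 1, or 0.458% of all nuclear protein-coding TPM in replicate 2 and 0.443% in replicate 1.

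The order Eef1a2, Eef2, Eef1g, Eef1b2, Eef1a1, Eef1d, Eef2k held in both animals, and the ranges of all 6 neighbouring pairs were apart. The gap was narrowest between Eef1a1, whose lower animal held 97.4 TPM, and Eef1d, whose higher animal held 95.4 TPM. In the second quantification the order by mean was unchanged, but Eef1a1 (138 TPM in replicate 2 and 94.98 TPM in replicate 1) and Eef1d (96.0 TPM in replicate 2 and 96.8 TPM in replicate 1) overlapped. With 2 animals the position of Eef1a1 relative to Eef1d is therefore not settled.

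**Figure D2:**
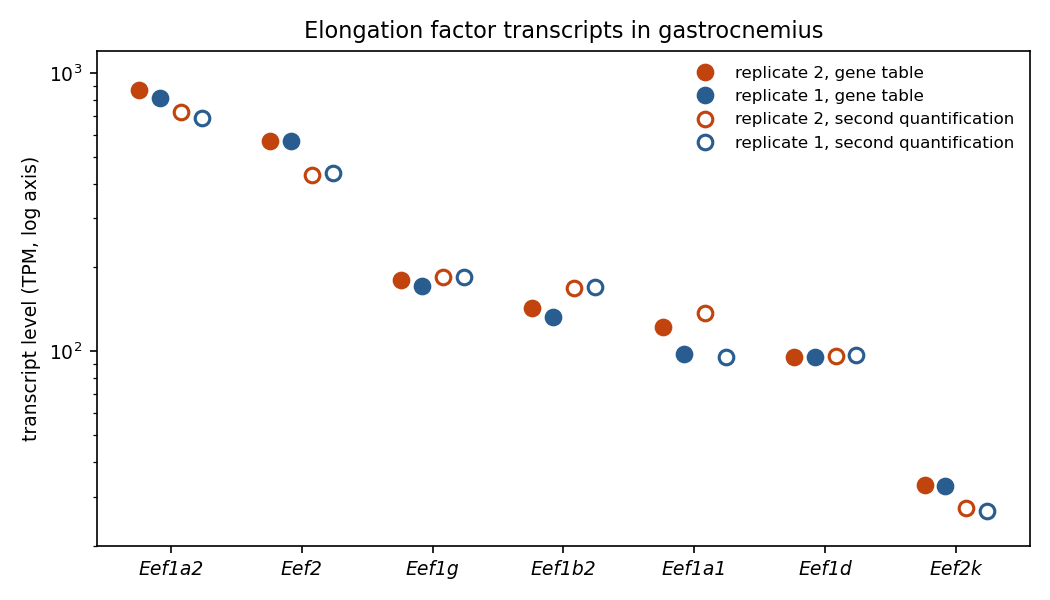
Level of each elongation factor gene (vertical axis, TPM, log axis) in replicate 2 and replicate 1, filled points for the gene tables and open points for the second quantification. Eef1a2 and Eef2 stand highest, Eef2k stands lowest, and in the gene tables the animals lie farthest apart for Eef1a1.

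The named genes nearest in level were found by the distance between log2(TPM + 0.1) values over both libraries, a likeness over 2 points that says nothing of shared control. Nearest to Eef1a2 were the myosin light chain kinase gene Mylk4 (874 TPM in replicate 2 and 849.8 TPM in replicate 1, distance 0.07), Ndrg2 and Cmya5. Nearest to Eef2 were Chchd10 (563 TPM in replicate 2 and 580.3 TPM in replicate 1, distance 0.03), Gnas and Srl. Nearest to Eef1a1 was the muscle actin-binding gene Synpo2 (119 TPM in replicate 2 and 99.3 TPM in replicate 1, distance 0.05), followed by the proteasome gene Psma3 and the actin-binding gene Nexn.

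The 7 genes were also compared between the animals. Ratios are of scaled counts, replicate 2 over replicate 1, scaled by edgeR's trimmed mean method (TMM) with 1 count added. Brackets hold 95% exact conditional binomial intervals, which cover counting error only. No member was 1.5-fold apart or more, and the share that was came to 12.2% over all 14101 genes that averaged at least 10 counts. With 7 genes, 0 does not set the members apart from that share. Each member held at least 1642 counts in each library, and comparisons with all genes, here and below, were not matched for depth. Eef1a1 was the most different, with 5725 counts in replicate 2 and 4075 in replicate 1, a log2 ratio of 0.34 [0.28 to 0.40] or 1.27-fold. Of all genes compared, 74.7% had a smaller absolute ratio.

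The other 6 members had log2 ratios of 0.02 to 0.12, with a median of 0.09. Eef1a2 had 48916 counts in replicate 2 and 40580 in replicate 1, a log2 ratio of 0.12 [0.10 to 0.14]. Eef2, with 48202 counts in replicate 2 and 42689 in replicate 1, had the smallest ratio, 0.02 [0.0061 to 0.04]. Eef1g (0.12) and Eef1b2 (0.11) lay beside Eef1a2, while the intervals of Eef1d (0.07) and Eef2k (0.06) included 0. The absolute ratio of 6 of the 7 members was below the median of all genes compared.

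All 7 ratios were above 0 under this scaling, as were 50.9% of all genes compared, but the sign of 6 of them hangs on it. Scaling by the spike-ins moved all genes by −0.15 and turned every member except Eef1a1 negative (Eef1a2 to −0.03, Eef2 to −0.12), and Eef1d and Eef2 were also negative by deposited TPM. Scaling by total counts moved all genes by 0.11 the other way. Eef1a1 stayed positive under every scaling tried, at 0.19 by spike-ins and 0.45 by total counts. The difference between the paralogs does not depend on scaling: the log2 ratio of Eef1a1 exceeded that of Eef1a2 by 0.22.

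**Figure D3:**
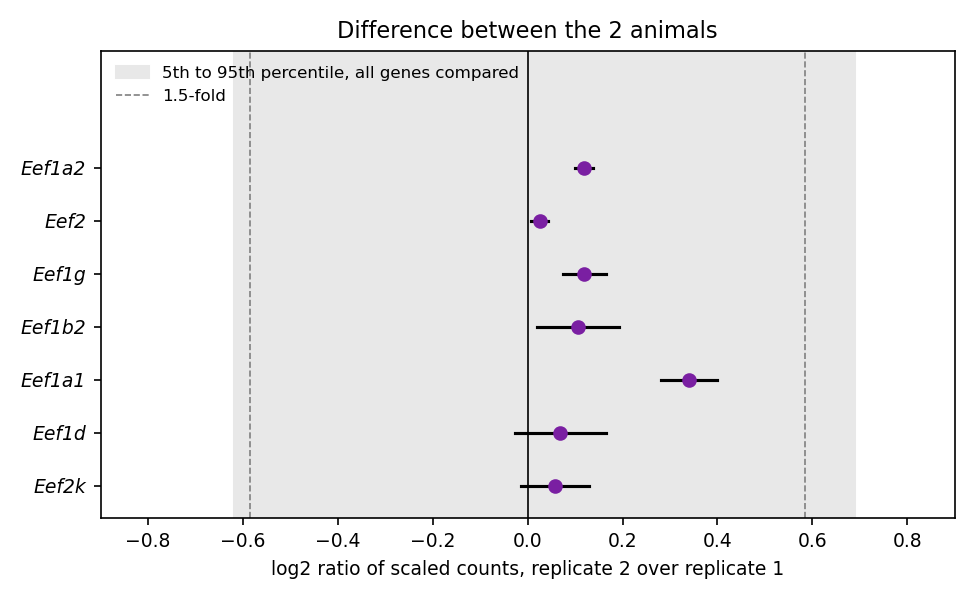
Log2 ratio of scaled counts, replicate 2 over replicate 1 (horizontal axis), for each elongation factor gene, with 95% counting intervals as bars, the 5th to 95th percentile of all genes compared as a grey band and 1.5-fold as dashed lines. All 7 genes lie between the dashed lines, and Eef1a1, at 0.34, lies farthest from 0.

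Markers of several cell types other than fibres were higher in replicate 2 by TPM, as Eef1a1 was. That direction was not particular to Eef1a1. By TPM, Eef1a2, Eef1b2, Eef1g and, barely, Eef2k were higher there as well, while Eef1d and Eef2 were slightly lower. All 5 endothelial markers were higher in replicate 2, with sums of 37.6 TPM in replicate 2 and 32.6 TPM in replicate 1. All 5 pericyte and smooth muscle markers were higher there too, at 113 TPM in replicate 2 and 90.9 TPM in replicate 1, as were all 5 adipocyte markers, at 26.3 TPM in replicate 2 and 17.3 TPM in replicate 1. Of the fibroblast markers 4 of 5 were higher in replicate 2 (142 TPM in replicate 2 and 137 TPM in replicate 1), and of the Schwann and nerve markers 5 of 5 (24.3 TPM in replicate 2 and 21.9 TPM in replicate 1). The other 2 lists did not share that direction. Macrophage markers were higher in replicate 2 in 1 of 5, at 3.15 TPM in replicate 2 and 4.4 TPM in replicate 1, and satellite cell markers in 2 of 5, at 3.18 TPM in replicate 2 and 3.0 TPM in replicate 1. The fibre markers also had the higher sum in replicate 2, at 79058 TPM in replicate 2 and 74749 TPM in replicate 1. Of them 5 of 10 were higher in replicate 2, among them Myh4 (11937 TPM in replicate 2 and 10879 TPM in replicate 1). Myh7 was among the lower (175 TPM in replicate 2 and 257 TPM in replicate 1). By ratios of scaled counts the markers higher in replicate 2 were 4 of 5 for Schwann and nerve and 7 of 10 for fibre. For the other lists named they were as many as by TPM. Of all genes compared, 50.9% were above 0. The spike-in shift of −0.15 would turn some of these markers negative, among them Pecam1 (0.12), Col1a2 (0.14), Col3a1 (0.03) and Dcn (0.12). No marker of these lists stood at 0 in either library, and the part of these cells in the Eef1a1 difference was not tested. Neurons, the other cells known for Eef1a2, were scarcely represented: their 5 markers lay between 0.01 and 0.13 TPM, and summed to 0.31 TPM in replicate 2 and 0.32 TPM in replicate 1.

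The members differed in how their signal was spread over annotated transcripts. Eef1a2 has 1 annotated transcript, Eef1a2-201. Eef2-201 held 99.6% of its gene in replicate 2 and 99.3% in replicate 1, and 99.8% in both animals by the second quantification. For Eef1a1 and Eef1g the leading transcript was the same in both quantifications but its share was not. Eef1a1-201 held 95.2% in replicate 2 and 96.8% in replicate 1, against 51.4% in replicate 2 and 67.2% in replicate 1 in the second quantification. There the short coding transcript Eef1a1-208 took 41.1% in replicate 2 and 30.0% in replicate 1. Eef1g-201 held 94.4% in replicate 2 and 92.97% in replicate 1, against 68.2% in replicate 2 and 61.6% in replicate 1, with the noncoding Eef1g-202 next.

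Eef1d is known for a short form, the exchange subunit, and a long form with an added amino-terminal region. It has 18 annotated transcripts, 9 of which reached 1 TPM in an animal in either quantification. Transcripts with a coding length of 1500 bases or more (Eef1d-204, Eef1d-206 and Eef1d-212) held 0.49% of the gene in replicate 2 and 0.14% in replicate 1, or 0.47 TPM in replicate 2 and 0.13 TPM in replicate 1. By the second quantification they held 2.44% in replicate 2 and 1.63% in replicate 1, or 2.34 TPM in replicate 2 and 1.57 TPM in replicate 1. In both quantifications nearly all Eef1d signal lay outside these long transcripts, on ones whose shares were less certain. Those that led have short annotated coding lengths, 631 bases for Eef1d-213 and 570 for Eef1d-217, against 771 for Eef1d-207. Whether they stand for the whole exchange subunit was not tested. Eef1d-213 led with 40.0% in replicate 2 and 38.8% in replicate 1 (39.4% ± 0.849), but in the second quantification Eef1d-217 led with 42.4% in replicate 2 and 45.3% in replicate 1. Eef1d-207 held 27.3% in replicate 2 and 14.8% in replicate 1 in the first table, and 0.841% in replicate 2 and 0% in replicate 1 in the second, so the apparent difference between the animals is not one that both quantifications show.

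Eef1b2 carried a sizeable share on transcripts annotated as targets of nonsense-mediated decay, which degrades mRNAs with an early stop codon. The 5 such transcripts held 40.0% of the gene in replicate 2 and 42.6% in replicate 1 (41.3% ± 1.81), against 57.9% in replicate 2 and 56.4% in replicate 1 on its 2 coding transcripts. Most of the latter lay on Eef1b2-209, with a coding length of 552 bases. Eef1b2-204, with the longer coding length of 675 bases, held 1.09% in replicate 2 and 2.33% in replicate 1. The second quantification put the decay class at 39.5% in replicate 2 and 51.1% in replicate 1, and the coding class at 42.8% in replicate 2 and 34.8% in replicate 1. In replicate 1 the order of the classes thus turned between the quantifications. The make-up of the decay class differed too: Eef1b2-206 led it in the second quantification, and Eef1b2-205 in the first table. Eef2k spread over Eef2k-203 (40.6% in replicate 2 and 44.7% in replicate 1), Eef2k-201 (32.2% in replicate 2 and 33.2% in replicate 1) and Eef2k-204 (17.5% in replicate 2 and 9.37% in replicate 1). In the second quantification Eef2k-204 held 31.7% in replicate 2 and 28.0% in replicate 1, and Eef2k-201, at 32.9%, led in replicate 1. These 3 have the same coding length, 2172 bases, and their order is not settled.

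**Figure D4:**
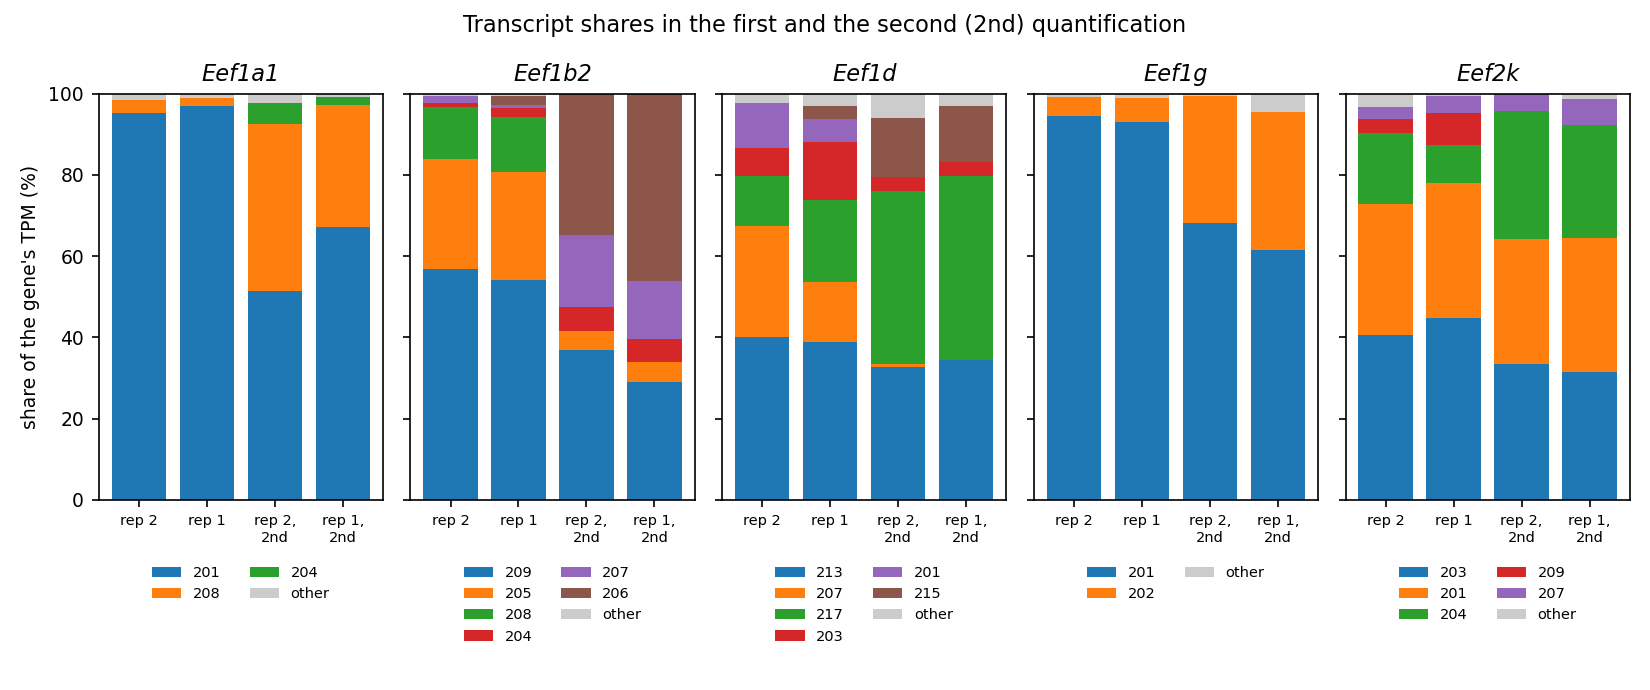
Share of each annotated transcript in its gene (vertical axis, percent of the gene's TPM) for 5 elongation factor genes, with bars for replicate 2 and replicate 1 in the first quantification and in the second (2nd), and colours for transcript numbers. Eef1g-201 holds 94.4% in replicate 2 and 92.97% in replicate 1 in the first quantification, and 68.2% in replicate 2 and 61.6% in replicate 1 in the second.

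Several small RNA genes lie inside the members on the same strand: Snord37 in Eef2, Snora41, Gm26457 and Gm27390 in Eef1b2 and Gm26377 in Eef1a1. All were listed at 0 counts, as was the antisense gene Gm15774 in Eef2k. They are short RNAs, except Gm15774, and for Snord37 and Gm26457 the deposited effective length is 0. The zeros of the short RNAs therefore say nothing of their presence in muscle. Gm15774 has an effective length of 2076 bases in both libraries, so its 0 counts are a measured value at this depth. RefSeq start-site windows of 300 bases (GRCm38.p6) matched 5 of the 7 members, with 7 windows in all; Eef1d and Eef1g had none in the table. Transcripts of the translation machinery are known for a terminal oligopyrimidine start, a C followed by a run of pyrimidines. None of the 7 annotated starts had a C followed by 4 or more C or T, against 2.51% of 32851 windows, which says only that these letters are not at the annotated first base. CpG dinucleotides in the window numbered 22 for Eef1a1, 34 for Eef2, 27 for Eef1b2 and 8 for the muscle paralog Eef1a2. The Eef2k windows had 18, 19 and 5, and the median over all windows was 7.

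Around the members stand the genes that modify, assist or follow them, of which 35 were listed and 34 had enough counts to be compared. None was 1.5-fold or more higher in replicate 2 (6.77% of all genes compared) and 1 was that much higher in replicate 1 (5.43%). That was Dnajc24, a diphthamide synthesis gene, with 42 counts in replicate 2 and 63 in replicate 1 (log2 ratio −0.72 [−1.33 to −0.15]). The median ratio of the list was 0.07 and 21 of 34 were above 0, against 50.9% of all genes compared.

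Eif5a, whose hypusine-bearing product helps the ribosome over difficult peptide bonds, held 200.5 TPM in replicate 2 and 190.1 TPM in replicate 1, more than any eEF1B subunit gene. Its paralog Eif5a2 held 0.3 TPM in replicate 2 and 0.32 TPM in replicate 1, and the hypusine enzymes Dhps and Dohh lay between 13.8 and 21.2 TPM. Of the genes that build diphthamide, the modified histidine of eEF2, Dph3 held 58.7 TPM in replicate 2 and 60.8 TPM in replicate 1, and the other 6 lay between 0.81 and 2.87 TPM. Among methyltransferases of the factors, Eef1akmt1 was highest, at 21.2 TPM in replicate 2 and 18.99 TPM in replicate 1. Eef2kmt, which methylates eEF2, had 148 counts in replicate 2 and 103 in replicate 1. Its log2 ratio of 0.37 [3.1e-05 to 0.75] was the highest in the list, with an interval that all but reached 0. Eef1akmt3, a methyltransferase of eEF1A, had 0 counts in replicate 2 and 2 in replicate 1 and was not compared.

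Tpt1, whose product binds eEF1A and the exchange complex, held 1599 TPM in replicate 2 and 1593 TPM in replicate 1, above all 7 members. The termination genes Etf1 and Gspt1 held 39.0 and 22.1 TPM in replicate 2, and 41.2 and 23.5 TPM in replicate 1. Of the rescue factors, Hbs1l was highest, at 28.3 TPM in replicate 2 and 29.98 TPM in replicate 1, and its partner gene Pelo held 3.77 TPM in replicate 2 and 3.53 TPM in replicate 1. The genes of the mitochondrial counterparts were lower than those of the cytosolic factors they match: Tufm, the counterpart of eEF1A, held 50.99 TPM in replicate 2 and 55.9 TPM in replicate 1, and Gfm1, the counterpart of eEF2, 47.2 TPM in replicate 2 and 48.0 TPM in replicate 1.

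**Figure D5:**
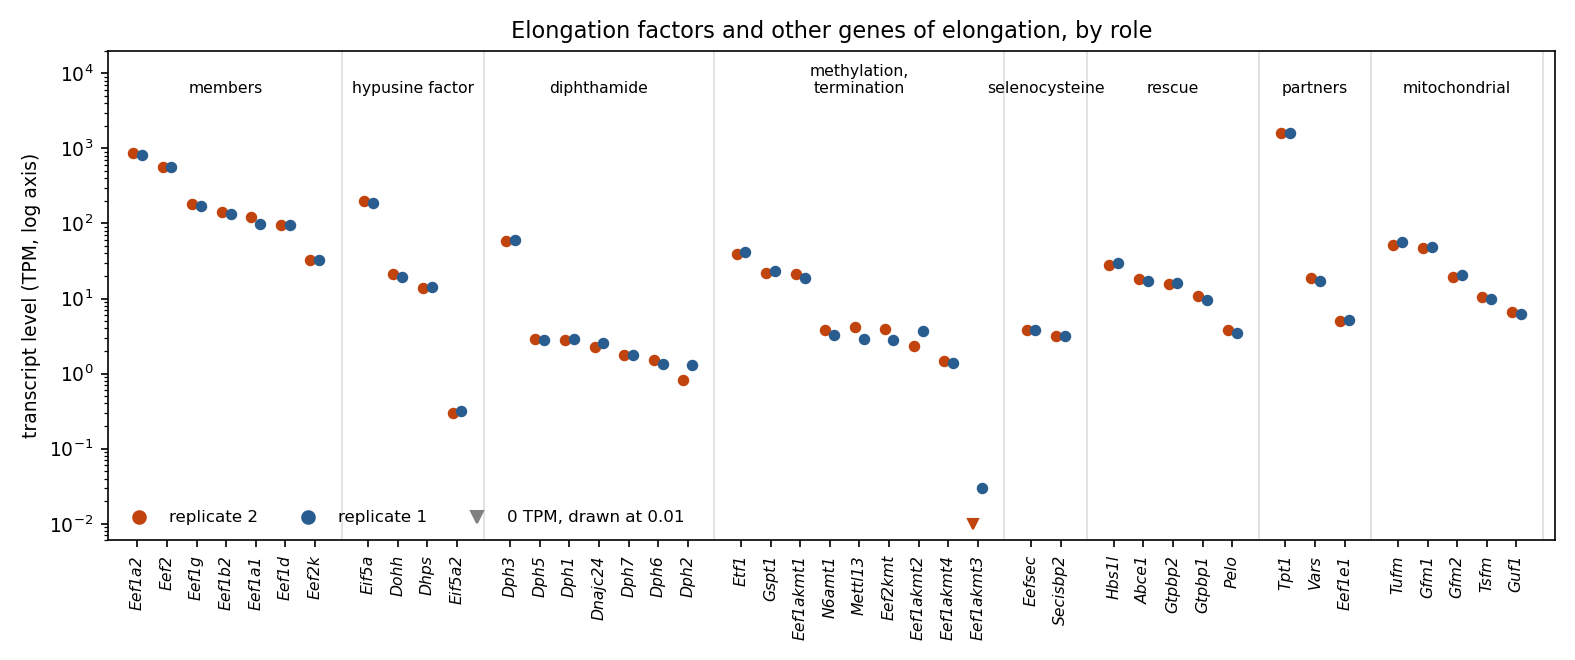
Level (vertical axis, TPM, log axis) in replicate 2 and replicate 1 of the 7 elongation factor genes and of 35 further genes of elongation, grouped by role, with a value of 0 TPM drawn as a triangle at 0.01. Tpt1, at 1599 TPM in replicate 2 and 1593 TPM in replicate 1, stands above all the elongation factors, and Eif5a2 and Eef1akmt3 stand lowest.

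Genes whose products act on eEF2K were measured from a list of 12, of which 11 could be compared. None was 1.5-fold apart in either direction, against 12.2% of all genes compared. Their median ratio was −0.0029, and 4 of 11 were above 0, against 50.9% of all genes compared. The calmodulin gene Calm3, at 223 TPM in replicate 2 and 221 TPM in replicate 1, stood above Eef2k itself. Prkaa2, the catalytic AMPK subunit typical of muscle, held 76.0 TPM in replicate 2 and 72.3 TPM in replicate 1, and Prkaa1 held 3.87 TPM in replicate 2 and 4.93 TPM in replicate 1. Prkaa1 had the lowest ratio of the list (−0.31 [−0.49 to −0.14]). The inhibitory kinase gene Rps6kb1 held 9.17 TPM in replicate 2 and 8.49 TPM in replicate 1, and Mapk13 had 2 counts in each library.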

How the data were processed

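Tables for 2 libraries were used. Per the deposited README and the file headers, the authors used mm10 with GENCODE M21 and deposited gene and transcript tables with RSEM's columns and a second transcript table with kallisto's; versions, aligner and strand setting are not given in the sources used here. The deposited expected counts are estimated reads per entry, not normalized. The deposited TPM values are scaled by length and library over all entries, spike-ins included. The deposited percent column is a transcript's share of its gene. Spike-ins, phiX and numeric entries stayed out of library sizes.

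Expected counts were rounded and scaled with edgeR 4.0.16 (TMM, the trimmed mean of M values) in R 4.3.3. Ratios of TPM added 0.1 TPM, and ratios of counts added 1 count, for genes that averaged at least 10 counts. With 1 library against 1 there was no test. Second-table values were summed per gene. Alternatives were DESeq2 1.42.0, total and spike-in scaling, other priors, minimums and pseudocounts, the second quantification and each animal left out; adding pseudogene levels to Eef1a1, and the order of genes in the second quantification, were chosen after the data were seen. Sequences were aligned with Biopython 1.88, and other steps used Python 3.11.15. All members and list genes could be named, though a listed gene is not reported here, and nearest genes were the 3 named ones at the smallest distance. The members and lists were chosen with earlier results of these data known. With 1 library from each animal, differences between the animals and differences of preparation cannot be told apart, so the spread may be partly technical. Nothing says whether the animals were prepared separately. Parental alleles were not separated.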

Additional observations from a re-analysis of the deposited data

How the results depend on the processing

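In the second quantification the Eef1a2 share was 85.9%, the log2 ratio of Eef1a2 to Eef1a1 was 2.62, that of Eef2 to the summed eEF1A genes −0.93, that of the eEF1A genes to the mean exchange subunit 2.45, and the share of Eef1d-213 33.6%. Each moved by more than the SD between the animals in the first table, though the Eef1a2 share and ratio moved by less than their SD in the second. The 3 log2 ratios kept their sign, Eef1d-213 lost its lead, and the cause was not tested. By expected counts, not per length, the Eef1a2 share was 90.2%. With a single animal, the Eef1a2 share was 87.6% to 89.3%, the same 3 log2 ratios were 2.82 to 3.06, −0.80 to −0.67 and 2.77 to 2.82, and the share of Eef1d-213 was 38.8% to 40.0%. The log2 ratios between the animals followed the scaling. With total counts they were 0.45 for Eef1a1, 0.23 for Eef1a2, 0.22 for Eef1b2, 0.18 for Eef1d, 0.23 for Eef1g, 0.14 for Eef2 and 0.17 for Eef2k. With spike-ins they were 0.19 for Eef1a1, −0.030 for Eef1a2, −0.044 for Eef1b2, −0.081 for Eef1d, −0.030 for Eef1g, −0.12 for Eef2 and −0.091 for Eef2k, so 6 changed sign. By deposited TPM Eef1a2 had 0.089 and Eef2 −0.0083. At a lower fold limit 1 member was apart in place of 0, because the limit is lower. Of the other elongation genes, 2 were 1.5-fold apart with spike-in scaling, 0 with a mean of 100 or more counts and 2 with no minimum, in place of 1. A further 59 values stayed within the SD, the counting interval or 1.5 times. With 2 animals, a single animal always lies within the SD of their mean, so values with 1 animal left out stayed by construction. Of the members' own levels in TPM, 15 values stayed and 13 moved. Those that moved did so under the second quantification or when rescaled to nuclear protein-coding genes, where Eef1a2 stood at 1929 TPM. Apart from single animals, only Eef1a1 in the second quantification stayed, at a mean of 116 TPM. No paired analysis was possible because there is 1 group of animals. Depth limits Eef1akmt3 and Mapk13, and with 2 animals no spread is well known.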
